A study of Mus musculus with 18 samples.

Results

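The genes of major histocompatibility complex (MHC) class I and class II presentation were examined in the retinal pigment epithelium (RPE) of *rd1* mice at P40. They were taken by name from the table of 47729 Ensembl genes, and all 10 listed genes were found there and were tested. Class I was represented by 5 genes: *H2-K1*, *H2-D1*, *B2m*, *Tap1* and *Tapbp*. Class II was represented by 5 genes: *H2-Aa*, *H2-Ab1*, *H2-Eb1*, *Cd74* and *Ciita*.

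The mice were *rd1* animals on the FVB/N strain, which carry a mutation in *Pde6b* and lose their rods. Both eyes of 9 mice were infected with AAV-Best1-GFP, an adeno-associated virus (AAV) that expresses GFP from the human Best1 promoter, which is active in the RPE. In 1 eye of each mouse, AAV-Best1-Nrf2, which carries the human *NFE2L2* (Nrf2) cDNA behind the same promoter, was added. The 9 libraries of eyes with Nrf2 form the Best1-Nrf2 group and the 9 of their fellow eyes the control group, 18 in all. The labels give 9 pairs at P40, more than the study's methods name for this comparison, and all 9 were used here. Each library was made from the RNA that 1 eyecup released after the retina and connective tissue had been taken off. The capsid of AAV-Best1-Nrf2 differed from that of AAV-Best1-GFP, which the paper describes as less infective for the RPE and less toxic to it. Because the control eye received no second vector in place of AAV-Best1-Nrf2, the additional dose of vector, its capsid and Nrf2 itself cannot be told apart.

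MHC class I molecules are made by nearly all nucleated cells and show peptides from the cytosol to CD8 T cells. A heavy chain, such as the products of *H2-K1* and *H2-D1*, pairs with β2-microglobulin (*B2m*), and the peptide is pumped into the endoplasmic reticulum by the TAP transporter (*Tap1*) and loaded with the help of tapasin (*Tapbp*). MHC class II molecules are made mainly by dendritic cells, B cells and macrophages, and show peptides from endosomes to CD4 T cells. *H2-Aa* and *H2-Ab1* encode the chains of the A molecule, and *H2-Eb1* the beta chain of the E molecule, whose alpha chain is not made in the H2q haplotype of FVB/N. The chains are escorted by the invariant chain (*Cd74*) and depend on the transactivator *Ciita*. Interferon-γ raises both sets. The RPE lies at the blood-retina barrier and is known to express class II in inflammation.

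The promoters of the heavy chain genes and of *B2m* are shown because 1 heavy chain gene passed the test and the other heavy chain and the light chain gene did not. The windows are the RefSeq sequences of GRCm38.p6, which is the C57BL/6J genome, from 250 bases before to 50 bases after the gene start, written 5′ to 3′ on the strand of the gene. Capitals mark every match, on either strand, to the motifs searched.
H2-K1: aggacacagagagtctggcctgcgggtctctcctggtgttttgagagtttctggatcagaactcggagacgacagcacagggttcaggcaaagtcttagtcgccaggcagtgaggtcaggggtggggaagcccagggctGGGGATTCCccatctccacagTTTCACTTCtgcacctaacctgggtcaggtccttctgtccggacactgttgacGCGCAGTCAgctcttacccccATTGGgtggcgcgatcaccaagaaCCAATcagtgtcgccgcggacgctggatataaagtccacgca
H2-D1: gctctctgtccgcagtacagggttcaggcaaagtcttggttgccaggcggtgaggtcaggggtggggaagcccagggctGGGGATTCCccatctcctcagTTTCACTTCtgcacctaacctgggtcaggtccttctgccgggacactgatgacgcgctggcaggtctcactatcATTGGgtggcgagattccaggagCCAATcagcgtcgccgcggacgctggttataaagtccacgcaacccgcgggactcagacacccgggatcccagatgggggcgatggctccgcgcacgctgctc
B2m: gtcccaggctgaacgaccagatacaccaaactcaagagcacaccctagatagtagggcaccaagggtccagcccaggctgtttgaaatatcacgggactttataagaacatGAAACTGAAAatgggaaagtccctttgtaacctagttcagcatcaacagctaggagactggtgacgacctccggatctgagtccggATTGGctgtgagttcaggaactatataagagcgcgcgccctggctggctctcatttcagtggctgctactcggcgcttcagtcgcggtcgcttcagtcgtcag
The *H2-K1* window lies at chr17:34000298-34000597 on the minus strand and is the first of 2 that RefSeq gives for the gene. The *H2-D1* window lies at chr17:35262844-35263143 on the plus strand. The *B2m* window lies at chr2:122147437-122147736 on the plus strand. Windows of 7 of the 10 genes were searched. No window of *H2-Ab1*, *Cd74* or *Ciita* was searched, so the motif results do not cover these genes.

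The motifs were a κB core (GGGNNTTCC), an interferon regulatory factor core (GAANNGAAA), an interferon-stimulated response element (GAAA, any 2 bases, GAAA), the CCAAT box and an antioxidant response element core (TGACNNNGC), each searched on both strands. *H2-K1* and *H2-D1* shared the order of their κB, interferon regulatory factor and CCAAT motifs. In both, the interferon regulatory factor core began 21 bases after the κB core, and the first CCAAT box began 74 bases after that. The antioxidant response element core, the kind of site that Nrf2 binds, matched once in the *H2-K1* window (as GCGCAGTCA on the printed strand, between the interferon regulatory factor core and the first CCAAT box) and did not match in the other 6 windows. The windows are not aligned with each other, since the first CCAAT box began at -16 from the RefSeq start in *H2-K1* and at -76 in *H2-D1*, so distances from the start are not comparable between them. The antioxidant response element core was found in 12.4% of all 32851 promoter windows of the reference. The κB core was found in 5.82% of them, the interferon regulatory factor core in 7.52%, the interferon-stimulated element in 3.44% and the CCAAT box in 37.4%. In *B2m* the interferon-stimulated element and 1 CCAAT box matched. These are matches of letters in the genome of another strain, and no binding was measured.

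Library totals ranged from 18956748 to 44054836 counts in control and from 32839893 to 49598700 in Best1-Nrf2 eyes, and *H2-D1* had 7431 to 49956 counts in a library. *Ciita* and *H2-Eb1* were measured with only 2 to 87 and 2 to 51 counts. Levels are given as CPM, the counts scaled to a library total of 1000000 after normalisation. *Nfe2l2*, which gene counts cannot part from the delivered human cDNA, had 76.6 to 133 CPM in control and 274 to 703 CPM in Best1-Nrf2 eyes, without overlap. The RPE markers *Rpe65*, *Rlbp1* and *Rgr* were detected in every library but were among the 5 of 15 RPE markers that were lower with Best1-Nrf2, *Rpe65* by the log2 fold change of -2.81 in 9 of 9 mice. Their mean log2 CPM was 7.85 in control replicate 8, the smallest library, and 9.07 or more in the other control eyes. All 9 cone markers were lower with Best1-Nrf2, although their mean log2 CPM differed by only -0.11 between the eyes of mouse 6, against -2.82 to -6.56 in the other mice. Of 7 tested rod markers 2 were lower and 1, *Rom1*, was higher (log2 fold change, 1.53, 9 of 9 mice). In such tissue samples, fewer cells of a type and less RNA per cell cannot be told apart.

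The question was whether presentation genes differed between the Nrf2-treated RPE and that of the fellow eye. *H2-K1* rose about 2-fold with Best1-Nrf2, and it was the single one of the 10 genes that passed in edgeR's quasi-likelihood test. The remaining 4 class I genes and all 5 class II genes did not pass, and 8 of these 9 had a positive estimate. Higher with Best1-Nrf2 were 1 of 10 listed genes and 3.12% of the 18958 genes tested, and lower were 0 of 10 and 1.13%, so that 1 of 10 stands against 4.26% in either direction. At an unadjusted edgeR p under 0.05 the counts were the same, 1 higher and 0 lower, against 7.6% and 5.26% of all genes (12.9% together), and DESeq2 and voom each also called 1 higher and 0 lower, with 940 and 924 genes of the whole table higher and 538 and 502 lower. The groups did not overlap for 0 of the 10 genes, against 1.17% of all genes tested. None was higher in 9 of 9 mice or lower in 9 of 9, against 3.11% and 1.23% of all genes. The median log2 fold change was 0.22 over the listed genes and -0.03 over all genes.

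*H2-K1* (ENSMUSG00000061232, GRCm38 chromosome 17, 33996017–34000347, minus strand) encodes the heavy chain of the classical class I molecule K. It ranged from 76.2 to 198 CPM in control eyes, with a median of 146, and from 139 to 433 CPM in Best1-Nrf2 eyes, with a median of 262. Of the 9 Best1-Nrf2 eyes, 7 lay above the highest control eye. The mean rose from 139 ± 41.4 to 285 ± 90.8 CPM (SD over 9 libraries), and the log2 fold change was 1.03 (SE 0.19, 95% interval 0.63 to 1.44, edgeR adjusted p = 0.0064). In 8 of 9 mice the treated eye was higher, by 0.77 to 1.74 on the log2 scale, and the eyes differed by -0.07 in mouse 6. Without mouse 6 the log2 fold change was 1.16 (adjusted p = 8.30e-04), and it lay between 0.98 and 1.16 when any 1 mouse was left out.

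The call of *H2-K1* was lost when a marker score of other cells entered the model. With the mean level of rod and cone markers as a covariate, its log2 fold change was 0.25 (SE 0.39, adjusted p = 0.789), and 11 genes of the whole table were then higher. With the mean level of macrophage and microglia markers as a covariate it was 1.22 (SE 0.46, adjusted p = 0.841), and 22 genes were then higher. Both scores moved with the treatment in 9 of 9 mice, and their part in the result was not tested.

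*H2-D1* (ENSMUSG00000073411, chromosome 17, 35262730–35267499, plus strand) encodes the other classical heavy chain here. It ranged from 264 to 927 CPM in control (median, 678) and from 317 to 1354 CPM in Best1-Nrf2 eyes (median, 840). The groups overlapped almost wholly, with 2 of 9 Best1-Nrf2 eyes above the highest control eye. The means were 609 ± 218 and 791 ± 346 CPM (SD, n = 9 each), and the log2 fold change was 0.34 (SE 0.24, 95% interval -0.17 to 0.86, adjusted p = 0.65). It was nevertheless higher with Best1-Nrf2 in 8 of 9 mice, by 0.02 to 1.40, and lower by the most in mouse 6 (-1.13). With the photoreceptor covariate the estimate was -0.72 (adjusted p = 0.475), and without mouse 6 it was 0.51 (adjusted p = 0.191).

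Since *H2-K1* and *H2-D1* lie in the same complex and shared most promoter motifs, their responses were set against each other within each mouse, a contrast chosen after the values were seen and therefore given as a description, with no test. *H2-K1* counts amounted to 19.1% to 38.1% of *H2-D1* counts in control eyes (median, 21%) and to 25.2% to 55.3% in Best1-Nrf2 eyes (median, 39.5%). In each mouse the treated eye had the higher share. The difference in log2 CPM between eyes was larger for *H2-K1* than for *H2-D1* by 0.69 ± 0.38 (SD, n = 9 mice), with a range of 0.30 to 1.38. The same contrast against *B2m* gave 0.70 ± 1.18 (SD, n = 9 mice), positive in 7 of 9 mice. Mouse 6, whose treated eye held the lowest level of both heavy chain genes in its group, also had the higher share there (44% against 21%).

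**Figure D1:**
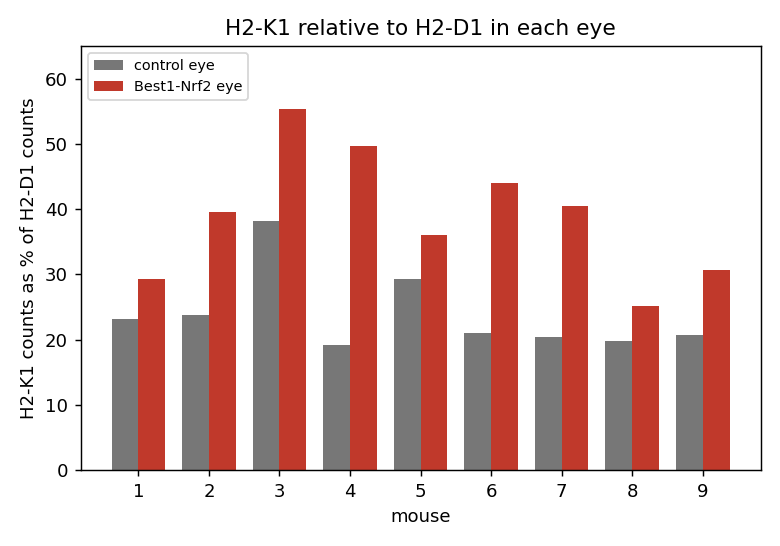
*H2-K1* counts as a percentage of *H2-D1* counts (y axis, starting at 0) in the control eye (grey bars) and the Best1-Nrf2 eye (red bars) of each of the 9 mice (x axis). The red bar is the taller in every mouse, with medians of 39.5% against 21%.

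Near-identical class I genes can exchange reads. Of the 31-base words of *H2-K1* transcripts, 22.8% occur in other annotated genes, and 11.1% occur in *H2-D1*, while 26.7% of those of *H2-D1* are shared. The values for both heavy chains are therefore uncertain, and since *H2-D1* had the more counts, the share of *H2-K1* counts that could stem from it is not bounded by these percentages. When the counts of 15 classical and nonclassical heavy chain genes were summed into 1 feature, its log2 fold change was 0.50 (SE 0.22, unadjusted p = 0.0417, adjusted p = 0.354), higher in 8 of 9 mice. *H2-K1* held 15.2% to 32.2% of that sum. FVB/N and C57BL/6J carry different H2 haplotypes (H2q and H2b), so reads of H2 alleles may align to the reference less well than those of other genes. Both eyes of a mouse share their alleles, and the effect on the levels was not tested.

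*B2m* (ENSMUSG00000060802, chromosome 2, 122147686–122153083, plus strand) encodes the light chain that every class I heavy chain needs, and none of its words were shared. Its level ranged from 257 to 1129 CPM in control (median, 319) and from 311 to 1031 CPM in Best1-Nrf2 eyes (median, 533). The control eyes of mice 3 and 5 stood at the top of their group, and no Best1-Nrf2 eye exceeded them. The log2 fold change was 0.32 (SE 0.29, 95% interval -0.31 to 0.96, adjusted p = 0.759), with a higher level in 6 of 9 mice. Single mice moved it between 0.15 (mouse 8 left out) and 0.50 (mouse 5 left out).

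The genes that load the peptide did not pass. *Tap1* (chromosome 17, 34187553–34197225), a subunit of the peptide transporter, had 5.58 to 23.4 CPM in control (median, 14) and 4.66 to 39.1 CPM in Best1-Nrf2 eyes (median, 16.7). Its log2 fold change was 0.04 (SE 0.37, 95% interval -0.76 to 0.85, adjusted p = 0.983), with a higher level in 5 of 9 mice. As a ratio, the interval ran from 0.59-fold to 1.80-fold. *Tapbp* (chromosome 17, 33915899–33929292), the tapasin gene, had 61.4 to 365 CPM in control (median, 238) and 63.6 to 394 CPM in Best1-Nrf2 eyes (median, 281). The log2 fold change was 0.24 (SE 0.31, 95% interval -0.43 to 0.91, adjusted p = 0.857), with a higher level in 7 of 9 mice. In mouse 6 both were far lower in the treated eye, by -2.28 for *Tap1* and -2.19 for *Tapbp*. Without that mouse the log2 fold changes were 0.31 (adjusted p = 0.693) and 0.50 (adjusted p = 0.214), whereas without mouse 5 they were -0.097 and 0.095.

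**Figure D2:**
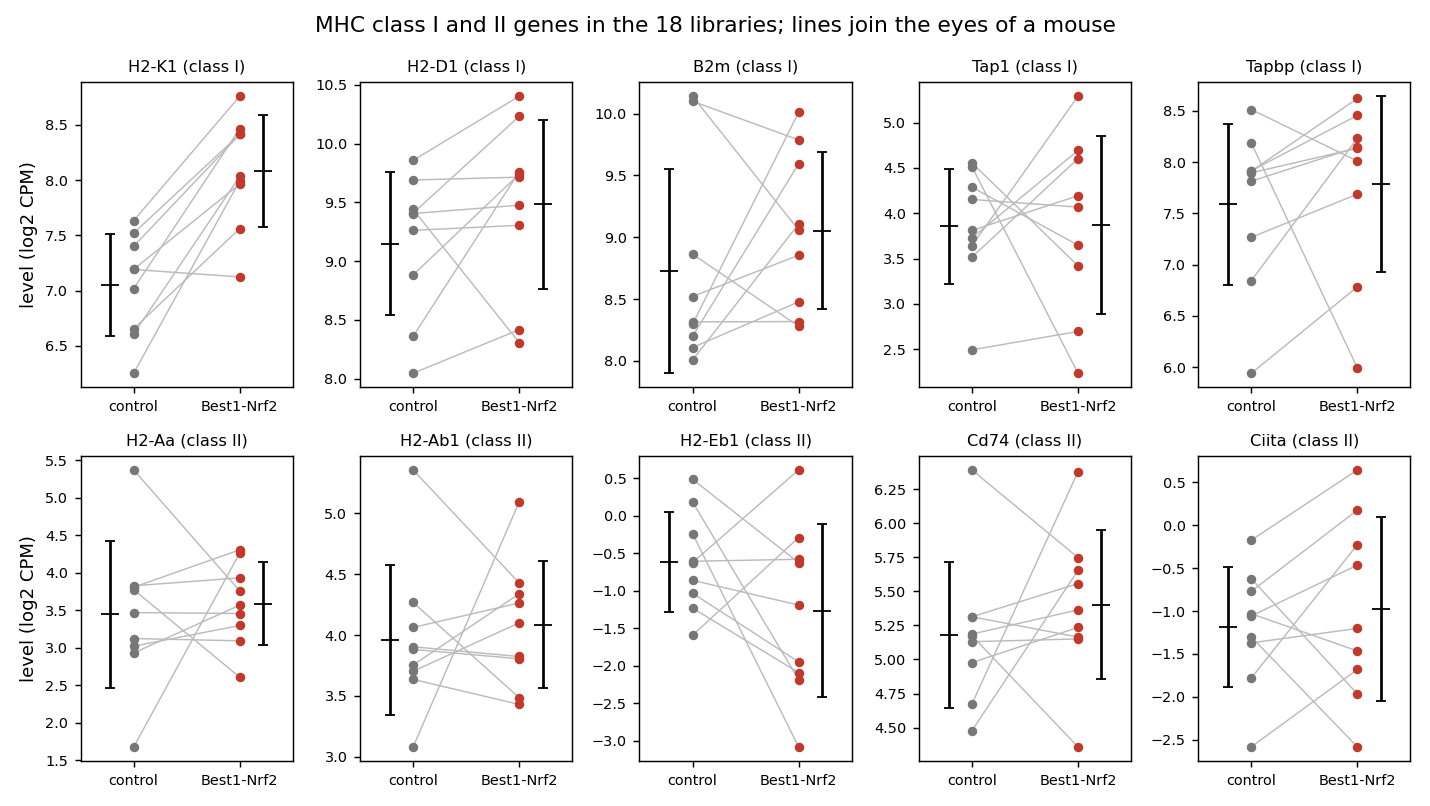
Level of each of the 10 genes (y axis, log2 CPM, a scale of its own in each panel) in control and Best1-Nrf2 eyes (x axis). Points are the 9 libraries of a group, grey lines join the eyes of a mouse, and the bars give the mean ± SD of log2 CPM. *H2-K1* lines run upward in 8 of 9 mice, whereas the lines of the class II genes cross.

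Class II genes were expressed at low levels, and none passed the test. *Cd74*, the invariant chain and the most abundant class II gene here, ranged from 22.2 to 83.9 CPM in control (median, 36.1) and from 20.4 to 83.1 CPM in Best1-Nrf2 eyes (median, 41.1). The ranges were nearly the same. The log2 fold change was 0.21 (SE 0.25, 95% interval -0.33 to 0.75, adjusted p = 0.844), with a higher level in 6 of 9 mice. The control eye of mouse 5 held the highest level of the group, and the Best1-Nrf2 eye of mouse 1 came close to it.

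*H2-Ab1* (chromosome 17, 34257689–34269419), the beta chain of the A molecule, ranged from 8.41 to 40.9 CPM in control (median, 14.7) and from 10.7 to 34.1 CPM in Best1-Nrf2 eyes (median, 17.1). Its log2 fold change was 0.11 (SE 0.27, 95% interval -0.48 to 0.69, adjusted p = 0.942), with a higher level in 4 of 9 mice. It turned to -0.06 without mouse 1. *H2-Aa* (chromosome 17, 34282744–34287823), the alpha chain of the same molecule, ranged from 3.15 to 41.4 CPM in control (median, 11) and from 6.05 to 19.7 CPM in Best1-Nrf2 eyes (median, 11.8). The control eyes enclosed the whole range of the treated eyes. Its log2 fold change was 0.12 (SE 0.36, 95% interval -0.66 to 0.90, adjusted p = 0.953), and it was -0.08 without the replicate block for mouse and -0.10 without mouse 1.

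For these genes mouse 1 differed in sign from mice 2 and 5. In mouse 1 the Best1-Nrf2 eye was higher by 2.59 for *H2-Aa*, 2.01 for *H2-Ab1* and 1.71 for *Cd74* on the log2 scale. In mouse 5 it was the control eye that was higher, with differences of -1.61, -0.93 and -0.64, and *Cd74* was lower still in mouse 6 (-0.82). In mouse 2 the differences were -1.17, -0.78 and -0.15. In 6 mice the *H2-Ab1* difference lay between -0.20 and 0.58.

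*H2-Eb1* and *Ciita* were near the limit of detection. *H2-Eb1* (chromosome 17, 34305867–34316674), the beta chain of the E molecule, had 0.278 to 1.35 CPM in control (median, 0.596) and 0.0647 to 1.47 CPM in Best1-Nrf2 eyes (median, 0.385). Its estimate was negative, in contrast to the other 9 genes, with a log2 fold change of -0.70 (SE 0.53, 95% interval -1.86 to 0.47, adjusted p = 0.701), and it was lower in 6 of 9 mice. *Ciita* (chromosome 16, 10480059–10528418), which encodes the coactivator that class II transcription depends on, had 0.114 to 0.834 CPM in control (median, 0.427) and 0.113 to 1.51 CPM in Best1-Nrf2 eyes (median, 0.381). Its log2 fold change was 0.23 (SE 0.43, 95% interval -0.70 to 1.17, adjusted p = 0.919), with a higher level in 6 of 9 mice. The intervals of both genes include changes of more than 2-fold, and with 1 mouse left out the estimates ranged from -0.97 to -0.41 for *H2-Eb1* and from 0.046 to 0.45 for *Ciita*.

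**Figure D3:**
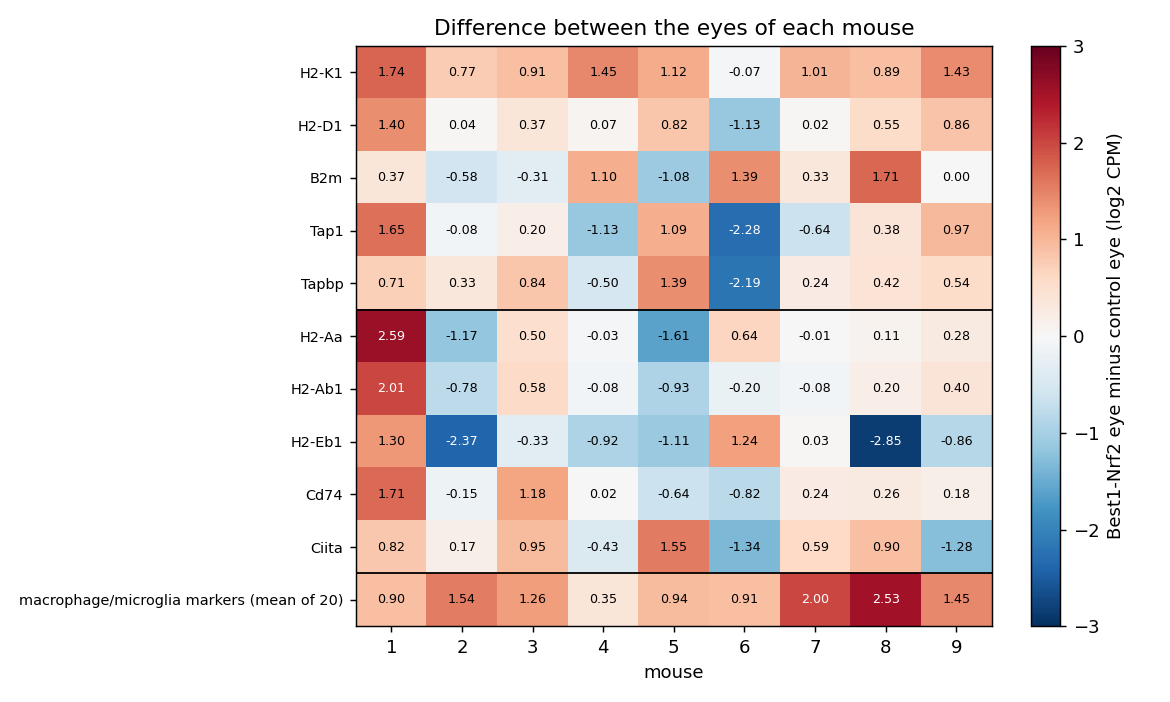
Difference in log2 CPM between the Best1-Nrf2 and the control eye (colour and printed value, red for higher in the Best1-Nrf2 eye) for the 10 genes and for the mean of 20 macrophage and microglia markers (rows) in each mouse (columns); black lines part class I, class II and the markers. The *H2-K1* row is positive in all mice but mouse 6, the class II rows are positive throughout in mouse 1 and of mixed sign in the others, and the marker row is positive in 9 of 9 mice.

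To compare levels between genes, CPM were divided by the exonic length of each gene in kilobases. In control eyes *B2m* had the highest level, 584 ± 409 CPM per kilobase (SD, n = 9), followed by *H2-D1* (236 ± 84.7), *Tapbp* (59.2 ± 25.3), *H2-K1* (47.2 ± 14.1) and *Cd74* (23.1 ± 10.7). *H2-Ab1* (6.64 ± 3.66), *H2-Aa* (3.56 ± 2.91) and *Tap1* (2.84 ± 1.06) came next, and *H2-Eb1* (0.344 ± 0.18) and *Ciita* (0.045 ± 0.0221) were last. Neighbours in this order whose mean ± SD overlapped were *B2m* and *H2-D1*, *Tapbp* and *H2-K1*, *H2-K1* and *Cd74*, *H2-Ab1* and *H2-Aa*, and *H2-Aa* and *Tap1*. In Best1-Nrf2 eyes the level of *H2-K1* was 96.9 ± 30.9 CPM per kilobase, above the mean of *Tapbp* (68.9 ± 29.5) but within the spread. The remaining genes had the same order of mean levels, with *H2-Aa* (3.36 ± 1.22) and *Tap1* (3.21 ± 1.98) nearly equal.

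Over the 18 libraries, after the group means were removed, the level of *H2-K1* followed most closely that of *Htatip2* (Pearson r = 0.93), *Dusp14* (0.93), *Gstm2* (0.92), *Syngr2* (0.90) and *Fstl3* (0.89) out of 11805 genes whose log2 CPM averaged at least 2. Of these, *Gstm2*, a glutathione transferase gene, had a log2 fold change of 2.60 (adjusted p = 1.72e-05) and *Htatip2* of 1.90 (adjusted p = 0.00225). *Dusp14* was at 0.97 (adjusted p = 0.0217), while *Syngr2* (0.30, adjusted p = 0.433) and *Fstl3* (0.11, adjusted p = 0.936) did not pass. *H2-D1* ranked 10th by the same measure (r = 0.86), whereas *B2m* did not follow *H2-K1* (r = 0.04). *Cd74* followed *H2-Ab1* (r = 0.87), then *Irgm1* (0.84) and *Usp18* (0.70), which are interferon-induced genes, and *Krt17* (0.67) and *Shmt1* (0.66). *Tap1* went with *Tapbp* (r = 0.89), *H2-D1* with *Tap1* (0.77) and *Tapbp* (0.63), and *H2-Aa* with *H2-Ab1* (r = 0.87). *B2m* ran against *Tapbp* (r = -0.78) and *Tap1* (-0.62) and went with *H2-Aa* (0.67). These coefficients describe 18 libraries that share their scaling, with both eyes of a mouse among them, and are given without a test.

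Other genes of antigen presentation and of the interferon response were then examined, of which 76 were listed and 69 could be tested. Higher were 7 and lower were 0, against 3.12% and 1.13% of all genes. The 7 became 3 without mouse 4 or mouse 7, 12 without mouse 6 and 0 with either covariate. In class I presentation, 2 of 26 tested genes rose. They were *Cd1d1*, which presents lipids to NKT cells (1.5 on the log2 scale, adjusted p = 0.00403, 9 of 9 mice), and the nonclassical heavy chain gene *H2-T10* (1.08, adjusted p = 0.0418, 8 of 9 mice). *H2-T10* is annotated as a polymorphic pseudogene. It shares 50.7% of its words with other genes, most of them with *H2-T22*, whose log2 fold change was 0.96 (adjusted p = 0.136). The second TAP subunit, *Tap2*, had a log2 fold change of -0.02 (adjusted p = 0.992). The immunoproteasome genes *Psmb8* (-0.52, adjusted p = 0.81) and *Psmb9* (-0.02, adjusted p = 0.994) did not pass. *Nlrc5*, the transactivator of class I genes, was at 0 to 0.629 CPM in control and 0 to 2.74 CPM in Best1-Nrf2 eyes, with an estimate of 1.77 (SE 0.89, adjusted p = 0.451).

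Against 3.12% of all genes, and with too few genes here to compare shares, 1 of 14 tested genes of class II presentation rose. This was *Ctss*, a lysosomal protease that trims the invariant chain and is abundant in macrophages, from 16.2 to 47 CPM in control (median, 24) and from 21.9 to 130 CPM in Best1-Nrf2 eyes (median, 73.1). Its log2 fold change was 1.37 (adjusted p = 0.00349, 9 of 9 mice). The peptide exchange genes *H2-DMa* (0.89, adjusted p = 0.277) and *H2-DMb1* (-0.17, adjusted p = 0.883) and the promoter-binding factor *Rfx5* (-0.03, adjusted p = 0.983) did not pass.

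Of the interferon route, 1 of 12 signal genes and 3 of 17 response genes passed, all higher, against 3.12% of all genes. *Ifng* had 0 counts in each of the 18 libraries, which allows up to 0.171 CPM in the smallest library (3 counts, counting error only). *Irf1* (log2 fold change, -0.37, SE 0.51, adjusted p = 0.869), a factor through which interferon-γ acts on presentation genes, did not pass. Of 12 tested genes of this signal, *Socs1*, a feedback inhibitor, rose (1.10, adjusted p = 0.0225, 8 of 9 mice). Of 17 tested response genes, *Igtp* (1.96, adjusted p = 7.79e-04, 9 of 9 mice), *Rsad2* (1.80, adjusted p = 0.039, 8 of 9 mice) and *Bst2* (1.27, adjusted p = 0.0191, 9 of 9 mice) rose, and the median of the response list was 0.31. The mean log2 CPM of this list was higher in the treated eye in 7 of 9 mice and differed by -0.04 in mouse 8 and by -1.19 in mouse 6. Mouse 6 was also the mouse with the lowest *H2-K1*, *Tap1* and *Tapbp* differences.

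Because macrophages and dendritic cells carry class II, their markers were set beside these genes. Of 20 macrophage and microglia markers, 12 rose and 0 fell, with a median log2 fold change of 1.69. Among them were *C1qa* (1.93, adjusted p = 5.36e-04), *P2ry12* (2.45, adjusted p = 0.00293) and *Trem2* (2.30, adjusted p = 0.00137), each in 9 of 9 mice. The defining genes *Ptprc* (-0.12, adjusted p = 0.945), *Csf1r* (-0.97, adjusted p = 0.111) and *Aif1* (1.08, adjusted p = 0.15) did not pass. The summed level of the list was 168 to 519 CPM in control and 195 to 766 CPM in Best1-Nrf2 eyes. No marker of this list was at 0 in every library.

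All 10 genes had a smaller mean difference between the eyes than these markers. The mean log2 CPM of the markers was higher in the Best1-Nrf2 eye by 1.32 ± 0.65 (SD, n = 9 mice). Subtracting this from the difference of each gene gave a mean of -1.10 ± 1.00 for *Cd74*, -1.19 ± 1.12 for *H2-Ab1*, -1.18 ± 1.43 for *H2-Aa* and -1.11 ± 1.07 for *Ciita*, each below 0 in 8 of 9 mice, and of -1.97 ± 1.84 for *H2-Eb1*, below 0 in 7 of 9. The class I genes *H2-D1* (-0.99 ± 0.93), *B2m* (-0.99 ± 1.05), *Tap1* (-1.30 ± 1.29) and *Tapbp* (-1.12 ± 1.08) lay as far below, in 7 or 8 of 9 mice. For *H2-K1* the mean was -0.29 ± 0.90, below 0 in 6 of 9 mice. In mouse 8, with the largest marker difference (2.53), *Cd74* differed by 0.26 and *H2-Aa* by 0.11, whereas in mouse 1 the markers differed by 0.90, *Cd74* by 1.71 and *H2-Aa* by 2.59, and in mouse 3 by 1.26, 1.18 and 0.50. After the group means were removed, the correlation of *Cd74* with the marker score over the 18 libraries was r = 0.26.

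Markers of other antigen-presenting and T cells were scarce. The 7 dendritic cell markers summed to 4.53 to 11.4 CPM in control and 2.17 to 12.8 CPM in Best1-Nrf2 eyes. *Flt3* (log2 fold change, -0.38, adjusted p = 0.872), *Zbtb46* (-0.28, adjusted p = 0.814) and *Itgax* (1.72, adjusted p = 0.113, higher in 8 of 9 mice), which macrophages also express, did not pass. The 4 B cell markers summed to 0.953 to 7.9 and 0.463 to 2.94 CPM. The 7 T and NK cell markers summed to 0.945 to 5.36 and 0.762 to 5.61 CPM, and *Cd3e* was at 0 in 4 of 18 libraries. Only 4 of the 7 dendritic cell markers, 2 of the 4 B cell markers and 1 of the 7 T and NK cell markers had enough counts to be tested, and 0 of these passed. Endothelial markers also held none (0 of 7), whereas 1 of 7 fibroblast and sclera markers, *Col3a1*, rose (1.15, adjusted p = 0.0458). The mean log2 CPM of the fibroblast and sclera markers was higher in the treated eye in 9 of 9 mice, by 0.56 ± 0.46 (SD). That of the endothelial markers was higher in 4 of 9. The part of these cell types in the levels of the class I and class II genes was not tested.

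**Figure D4:**
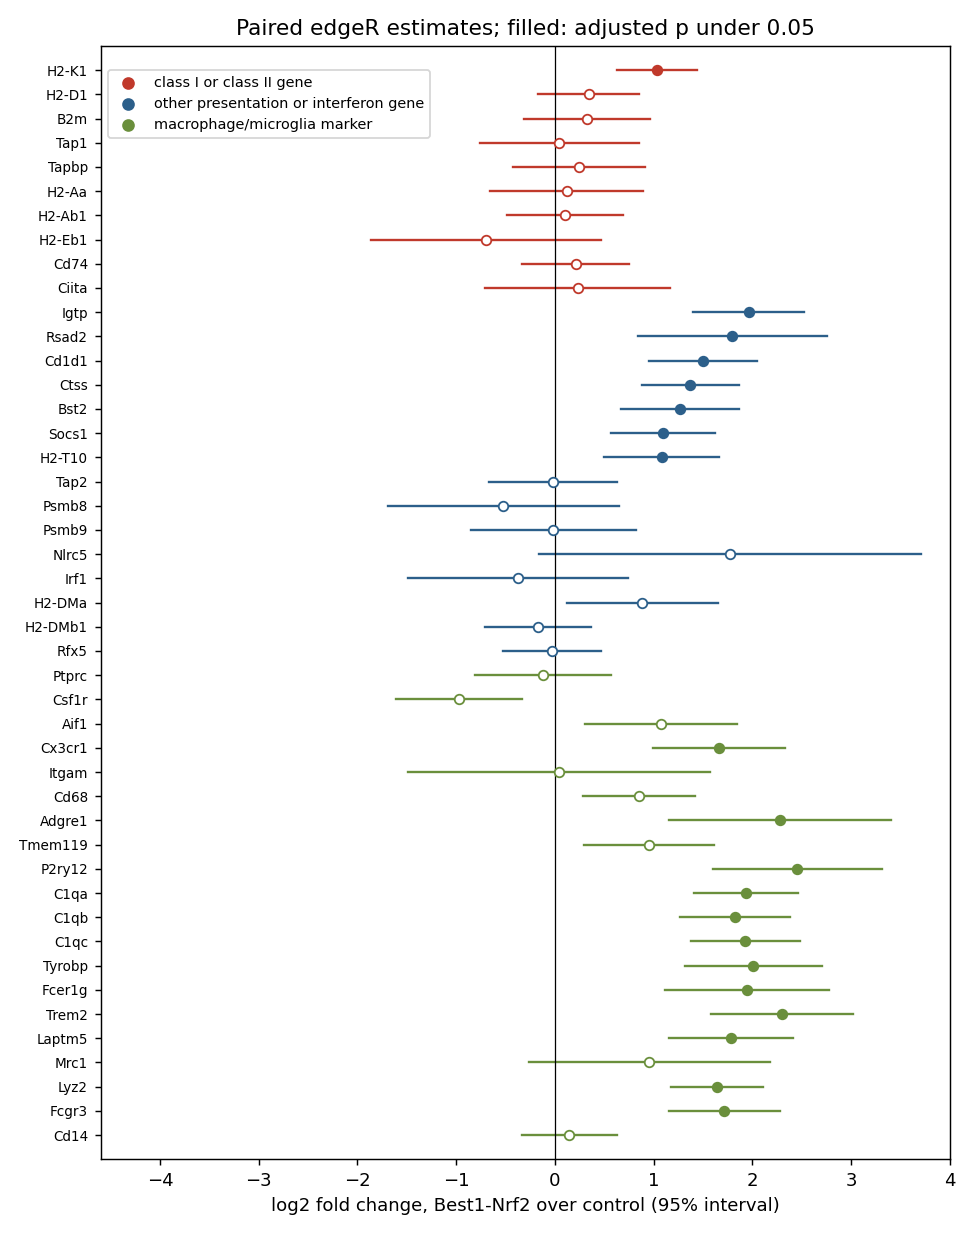
Log2 fold change of Best1-Nrf2 over control (x axis, positive for higher with Best1-Nrf2) with its 95% interval from the paired edgeR model, for the 10 genes (red), other presentation and interferon genes (blue) and 20 macrophage and microglia markers (green); filled points passed at an adjusted p under 0.05. *H2-K1*, at 1.03, is the single filled red point, while 12 of the 20 green points are filled.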

How the data were processed

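RNA of the RPE was sequenced from both eyes of 9 mice after amplification of poly(A) RNA, with no molecular identifiers described, so limits from counts reflect counting error alone. Reads were aligned by the authors with STAR to mm10 and Ensembl release 91, counted with featureCounts, and in parallel quantified with Salmon (0.8.1 in the submitters' processing notes). The deposited table holds expected counts per gene, rounded to whole numbers and neither scaled nor filtered. Which counter made it is not stated, and the unit was inferred from paralogs with identical values. Symbols were found for 47224 of 47729 gene IDs. Positions and exonic lengths are from GENCODE release M21 on GRCm38, the assembly of mm10.

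Libraries were paired by the animal number in the labels. After removal of group means, the correlation between eyes of a mouse had a median of -0.00096 (range, -0.37 to 0.64). No pair of libraries of a group was a duplicate (chi-square per degree of freedom, 50.8 or more over 72 pairs). The labels name separate sequencing runs but not the run of each library. Genes that passed filterByExpr were scaled by TMM and tested in edgeR 4.0.16 under R 4.3.3 (quasi-likelihood F test, robust, mouse as a block), with Benjamini-Hochberg adjustment over all genes and a threshold of 0.05. Log2 CPM used a prior count of 2. The method was run on simulated counts drawn without differences between mice, so the pairing was not tested, and the outcome is not reported here. The genes, lists, motifs and alternatives were chosen with earlier results of these data known. Named were the 10 genes, *Nfe2l2*, called genes of the presentation lists (up to 12) and 10 of their genes whatever their values (1 of which, like 1 defining marker, is not reported here), the 5 genes most like *H2-K1* and *Cd74*, and the defining markers of each list. Others (further macrophage markers, *H2-T22*, *Ifng*, *Col3a1* and RPE genes) were chosen after their values were seen. DESeq2 1.42.0 and limma 3.58.1 served as alternatives.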

Additional observations from a re-analysis of the deposited data

Results flagged for a closer look

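Of 24 groups of 9 libraries screened with Dixon's test at 95% (10 genes, *Nfe2l2* and the macrophage marker score in both groups), 3 held a library apart from the rest, where chance gives about 1.2. *Cd74* in the control eye of mouse 5 was at 6.39 log2 CPM, against 5.31 in the next, and *Tap1* in the control eye of mouse 3 was the lowest of its group at 2.49, against 3.52. *Nfe2l2* in the control eye of mouse 8 was at 7.06, against 6.60. The log2 fold change of *Cd74*, 0.21 in all mice, was 0.32 without mouse 5 and ranged from 0.082 (without mouse 1) to 0.34 (without mouse 6), and no cause of these values was tested.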

How the results depend on the processing

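*H2-K1* kept its direction and call in 17 of 20 alternatives, among them DESeq2 (log2 fold change, 1.03), limma voom, other scalings and filters, and the fit without the replicate block for mouse (1.04), which changed no call among the 10 genes. The alternative with an adjusted p threshold of 0.1 used the main fit, so it could not lose the call. *H2-K1* was at 0.98 to 1.16 with 1 mouse left out. It missed the threshold with the photoreceptor covariate (0.25) and the macrophage covariate (1.22). The summed heavy chains, a feature of which it is a part, also missed it (0.50).

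No other gene of the 10 passed in any alternative, but signs turned. With the photoreceptor covariate the log2 fold change was -0.47 for *Cd74*, -0.084 for *Ciita*, -0.21 for *H2-Ab1*, -0.72 for *H2-D1*, 0.43 for *H2-Eb1*, -1.81 for *Tap1* and -1.40 for *Tapbp*. With the macrophage covariate it was -0.37 for *Ciita*, 0.92 for *H2-Eb1*, -0.35 for *Tap1* and -0.23 for *Tapbp*. *H2-Aa* was at -0.083 without the replicate block and *Tap1* at -0.011 with upper-quartile scaling. With 1 mouse left out, *H2-Aa* ranged from -0.10 to 0.34, *H2-Ab1* from -0.059 to 0.24 and *Tap1* from -0.11 to 0.31. *Tapbp* ranged from 0.095 to 0.50, *Cd74* from 0.082 to 0.34, *Ciita* from 0.046 to 0.45 and *H2-Eb1* from -0.97 to -0.41. *B2m* was positive in all 19 of its alternatives but ranged from 0.024 with the macrophage covariate to 1.53 with the photoreceptor covariate (adjusted p = 0.242).

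Over all genes, 940 were higher and 538 lower with DESeq2, 924 and 502 with voom, 11 and 0 with the photoreceptor covariate, 22 and 1 with the macrophage covariate, and 417 to 735 and 115 to 321 with 1 mouse left out. Both covariates left 0 of the 10 genes, 0 of the other presentation genes and 0 macrophage markers higher. The other presentation genes higher were 13 with voom and 3 to 12 with 1 mouse left out (12 without mouse 6, 3 without mouse 4 or 7), and 1 was lower with DESeq2 and with voom. Macrophage markers higher were 11 to 12 with 1 mouse left out, and 1 was lower with DESeq2. Apart from the covariates, which take up part of the treatment difference by construction, the cause of these shifts was not tested. Depth limits *Ciita* and *H2-Eb1*, with as few as 2 counts in a library.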
